A study of Mus musculus with 9 samples.

Results

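The genes described here carry out the unfolded protein response and the integrated stress response. The set holds 36 of the 24062 genes in the count table and was taken by gene symbol, as endoplasmic reticulum (ER) chaperones, ER-associated degradation genes, stress sensors, regulators of the ATF4 pathway and enzymes that ATF4 is known to control. All 36 symbols were found in the table and all 36 passed the filter on low counts. RNA was sequenced from embryonic fibroblasts of C57BL/6 mice, connective tissue cells cultured from embryos, that gamma rays had made senescent. At day 10 after irradiation the cells received a lentivirus carrying shRela-1, shRela-2 or shScr, with 3 samples per group and 9 samples in all. The hairpins shRela-1 and shRela-2 are independent short hairpin RNAs against Rela, the gene of the NF-kB subunit p65, and shScr is a scrambled hairpin. Irradiation, senescence and lentiviral infection are common to the 3 groups, so no sample shows the level of these genes in cells that were not irradiated or not infected. The labels name no promoter for the hairpins, no clone and no pooling. The comparison asks how transcript levels depend on Rela in cells that are already senescent.

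In the ER, newly made secreted and membrane proteins are folded by chaperones, fitted with disulfide bonds and, if they fail to fold, sent back to the cytosol for destruction. When unfolded proteins build up, the membrane sensors IRE1 (encoded by Ern1), ATF6 and PERK (encoded by Eif2ak3) raise folding capacity through the factors XBP1, cleaved ATF6 and ATF4, and PERK also slows translation by phosphorylating eIF2. Other eIF2 kinases answer amino acid loss, heme loss or viral RNA and lead to ATF4 as well, which is why this shared branch is called the integrated stress response. Senescent fibroblasts secrete many proteins and so rely on this machinery. XBP1 is switched on by splicing, ATF6 by cleavage and ATF4 by translation, none of which a count per gene shows.

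Total counts ran from 49774667 to 67963506 per sample. Relative to the shScr mean, 15.5 to 16.6% of Rela remained in shRela-1 samples and 15.7 to 17.3% in shRela-2 samples. The cultures carried fibroblast transcripts: all 12 fibroblast markers were above 1 CPM (counts scaled to a common library total), and their summed level was 63694 to 67119 CPM with shRela-1, 56166 to 59058 CPM with shRela-2 and 57082 to 63283 CPM with shScr. Some lists of markers for other cell types also differed between groups. The 8 skeletal muscle markers summed to 452 to 823 CPM with shRela-1, 229 to 377 CPM with shRela-2 and 292 to 540 CPM with shScr, with Myod1, Myog, Myh3, Ckm and Actc1 under 1 CPM in every sample. Des and Acta1 made up nearly all of that sum. Des had 276 to 515, 164 to 291 and 190 to 367 CPM in the same order of groups. Acta1 had 175 to 306, 62.8 to 84.8 and 101 to 171 CPM. The 8 neural and glial markers summed to 186 to 192, 260 to 287 and 235 to 251 CPM in the same order, with Sox10, Sox2 and Gfap under 1 CPM. Nes and Tubb3 made up nearly all of this sum. Nes had 122 to 131, 127 to 151 and 144 to 160 CPM, and Tubb3 had 56.1 to 61.5, 121 to 132 and 85.9 to 87.1 CPM. The 10 epithelial markers summed to 15.3 to 22.8 CPM with shRela-1, 10.2 to 11.8 CPM with shRela-2 and 11.1 to 14.2 CPM with shScr, with Epcam, Cdh1, Krt14, Esrp1 and Grhl2 under 1 CPM. Krt18 had 8.02 to 16.5, 3.97 to 6.99 and 3.66 to 7.96 CPM. The 12 macrophage and blood markers were also all above 1 CPM in every sample, and summed to 464 to 611, 394 to 601 and 461 to 666 CPM. Of these, Lyz2 had 302 to 391, 271 to 414 and 316 to 451 CPM in the same order of groups. Csf1r had 20 to 33.4, 15.9 to 27.9 and 17.6 to 33.4 CPM. The 8 endothelial markers summed to between 8.52 and 12 CPM in every sample. The 7 plasma and B cell markers in the table, of cells rich in ER chaperones, summed to 220 to 229 CPM with shRela-1, 221 to 240 CPM with shRela-2 and 212 to 221 CPM with shScr. Nearly all of that was Sdc1, at 209 to 238 CPM over the samples, which fibroblasts are known to express too, and Prdm1 was at 0.983 to 3.45 CPM, while Cd79a, Cd79b, Mzb1 and Irf4 were under 1 CPM. The part of other cell types in the results was not tested. In bulk samples, fewer cells of a type and less RNA per cell cannot be told apart.

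Per base of exon, folding genes were the most abundant of the 36, and the sensors Atf6, Eif2ak3 and Ern1 were among the lowest. In shScr cells Calr, a lectin chaperone that binds glycoproteins, had the highest level at 667 ± 42.2 RPKM (CPM per kilobase of exon, SD, n = 3). Hsp90b1, the HSP90 chaperone of the ER, followed at 518 ± 19.7 RPKM and Pdia3, a disulfide isomerase that works with the lectin chaperones, at 473 ± 12.1 RPKM. These 2 neighbours differed by more than their SDs. Hspa5, the central HSP70 chaperone of the ER lumen also known as BiP, stood at 300 ± 3.52 RPKM. Atf4 was the highest outside the folding genes, at 128 ± 2.57 RPKM. Among the sensors Xbp1 had 44.9 ± 1.01 RPKM, Atf6 11.9 ± 0.371, Eif2ak3 9.22 ± 0.386 and Ern1 3.09 ± 0.0718 RPKM. Eif2ak3 and Trib3, at 9.41 ± 1.32 RPKM, were neighbours that did not differ beyond their spread. Derl3, a channel subunit of the degradation pathway, was the lowest at 0.268 ± 0.14 RPKM. With shRela-1 the order at the top changed, since Hsp90b1 stood at 211 ± 5.96 RPKM, under Calr (740 ± 47.2), Pdia3 (547 ± 19.7), Hspa5 (335 ± 10.8) and Pdia6 (271 ± 16.7 RPKM).

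A gene is said below to have risen or fallen where edgeR's quasi-likelihood test gave a Benjamini-Hochberg adjusted p under 0.05 over all 15369 genes tested. With shRela-1, 17 of the 36 genes rose and 6 fell, where 12.3% of all genes tested rose and 12.4% fell. With shRela-2, 10 rose and 8 fell, where 15.4% of all genes rose and 15.4% fell. The median log2 fold change of the 36 was 0.15 in shRela-1 and -0.01 in shRela-2, and that of all genes was 0.00 with each hairpin. In the mean of both hairpins against shScr, 9 rose and 3 fell (10.7% and 12.2% of all genes). In the direct comparison, 9 were higher and 12 lower with shRela-2 than with shRela-1, where 20.0% of all genes were higher and 19.9% lower. Both hairpin comparisons use the same 3 shScr samples, so their values are given side by side and not as independent results.

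The replicate numbers in the titles pair the samples, and a fit with the number as a block calls more genes. With it, 20 of the 36 rose and 7 fell with shRela-1 (20.4% and 18.9% of all genes), and 13 rose and 15 fell with shRela-2 (22.2% and 22.2%). For the hairpin mean against shScr it called 12 risen and 10 fallen (17.8% and 19.7%), and between the hairpins 10 higher and 16 lower with shRela-2 (25.8% and 26.1%). It took away none of the calls of the fit without the block. Without scaling factors, 11 of the 36 rose and 6 fell with shRela-1, where 9.93% of all genes rose and 14.4% fell.

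Some of the genes rose with both hairpins and some moved in opposite directions, while the rest were called with only 1 hairpin or with neither. Hspa5, Hyou1, Pdia6, Dnajc3, Herpud1 and Xbp1 rose with both, 6 genes where 4.12% of all genes did so. With the block the number was 9 (7.51% of all genes), with Calr, Pdia4 and Derl1 added. Of the 36, 0 fell with both hairpins by edgeR (2.84% of all genes did), and 0 did so at an unadjusted p under 0.05, by DESeq2 or by limma voom. With the block 1 gene, Phgdh, fell with both (5.88%). Pdia3, Atf4, Eif2ak3, Ddit3, Trib3 and Sel1l were higher with shRela-1 but lower with shRela-2 than with shScr, 6 genes where 2.45% of all genes did so. With the block Creld2, Atf6 and Mthfd2 joined them, 9 genes against 5.45%. Canx, Dnajb9 and Sdf2l1 fell with shRela-1 but rose with shRela-2, 3 genes where 2.62% of all genes did so, and the same 3 with the block (4.50%).

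**Figure D1:**
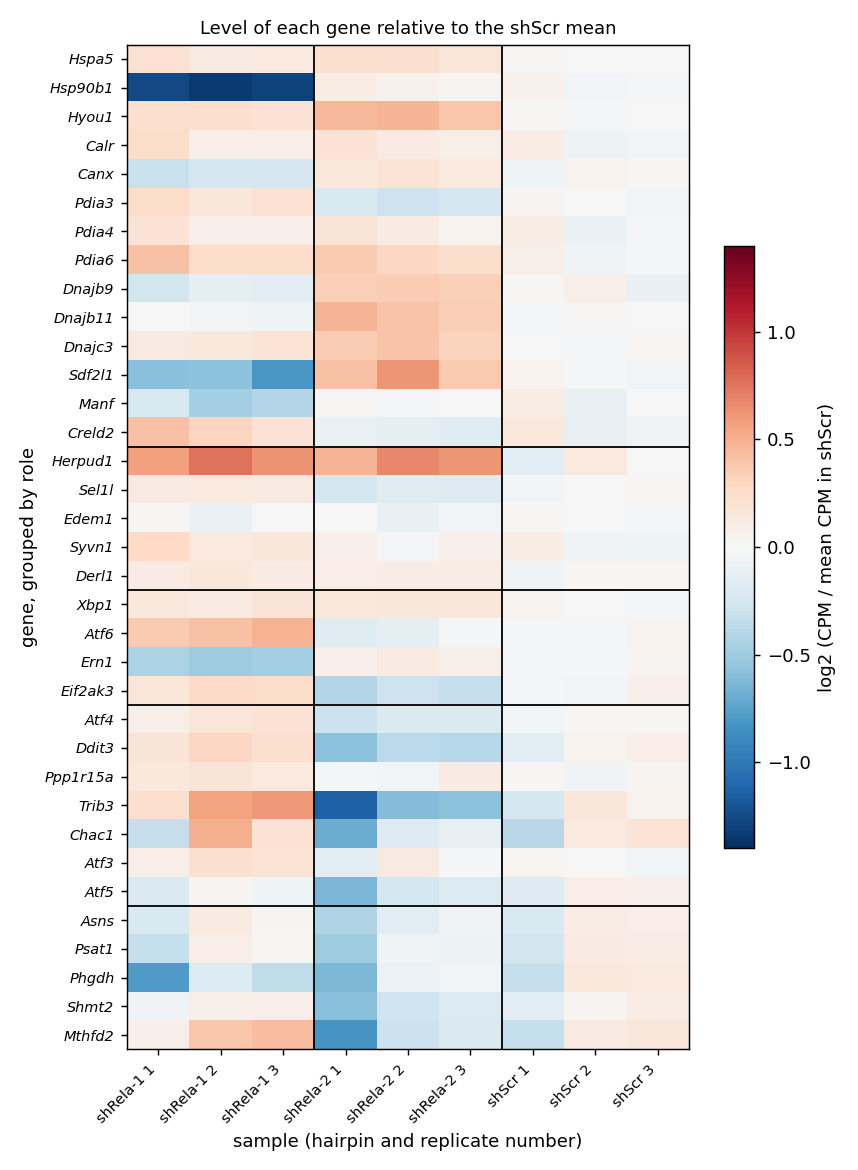
Level of 35 of the 36 genes in each of the 9 samples, as the log2 of its CPM over the mean CPM of the 3 shScr samples (colour scale), with genes in rows grouped by role and samples in columns; Derl3, under 1 CPM, is left out. Hsp90b1 is dark blue in the 3 shRela-1 samples only, Herpud1 is red in all 6 knockdown samples, and the first sample of each group has the lowest value of its group in the bottom 5 rows, the enzymes.

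**Figure D2:**
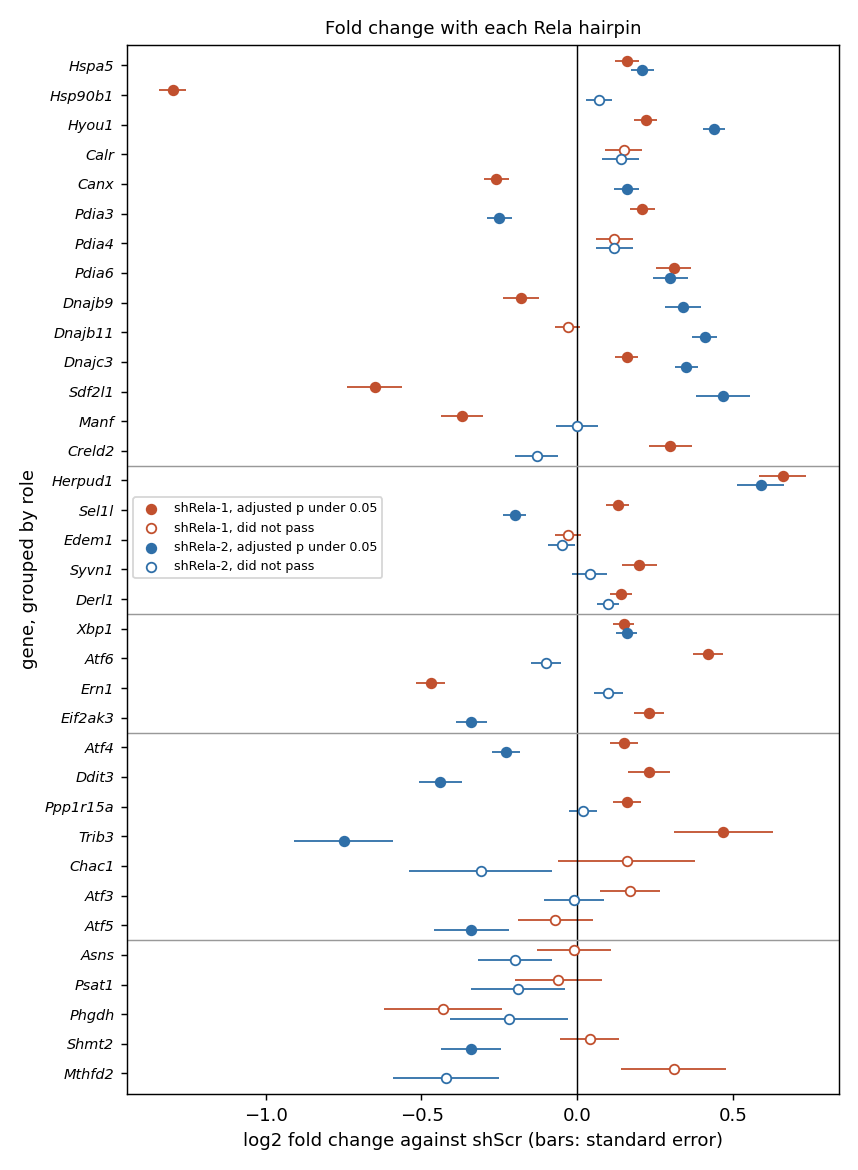
Log2 fold change of the same 35 genes against shScr with shRela-1 (orange) and shRela-2 (blue), with bars for the standard error and filled points for an adjusted p under 0.05. The points of a gene lie on the same side of 0 for Hspa5, Hyou1, Pdia6, Dnajc3, Herpud1 and Xbp1, and on opposite sides for Trib3 (0.47 and -0.75) and Sdf2l1 (-0.65 and 0.47).

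Among the 14 chaperones and folding enzymes, 6 rose and 5 fell with shRela-1 (8 and 5 with the block), and 8 rose and 1 fell with shRela-2 (10 and 2 with the block). Of the genes that rose with both hairpins, 4 belong here, and the rises were small. Hspa5 had 1303, 1228 and 1238 CPM with shRela-1, 1319, 1319 and 1268 CPM with shRela-2, and 1142, 1119 and 1118 CPM with shScr. Every knockdown sample was above every control sample. Its log2 fold change was 0.16 ± 0.038 in shRela-1 and 0.21 ± 0.038 in shRela-2 (SE), and the hairpins differed by 0.05 with a 95% interval of -0.03 to 0.13. Hyou1, a large HSP70-like protein that exchanges the nucleotide on BiP, had 285, 285 and 279 CPM with shRela-1, 334, 338 and 318 CPM with shRela-2, and 246, 240 and 243 CPM with shScr. The 3 groups did not overlap, and shRela-2 was the highest. The rise was 0.22 ± 0.036 in shRela-1 and 0.44 ± 0.036 in shRela-2, and shRela-2 exceeded shRela-1 by 0.22 ± 0.036 (edgeR adjusted p = 6.67e-04). Pdia6, a disulfide isomerase, had 631, 568 and 568 CPM with shRela-1, 613, 584 and 563 CPM with shRela-2, and 504, 459 and 466 CPM with shScr. The hairpins overlapped and both were above shScr, with log2 fold changes of 0.31 ± 0.056 and 0.30 ± 0.056. Dnajc3, a J-domain co-chaperone of BiP that also inhibits PERK, had 160, 163 and 168 CPM with shRela-1, 187, 193 and 182 CPM with shRela-2, and 147, 144 and 149 CPM with shScr. The groups were again fully apart, with rises of 0.16 ± 0.037 and 0.35 ± 0.037.

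Other folding genes rose with shRela-2 and not with shRela-1, or moved against each other. Hsp90b1 had 611, 578 and 597 CPM with shRela-1, 1577, 1530 and 1504 CPM with shRela-2, and 1526, 1420 and 1443 CPM with shScr. The shRela-1 samples lay far below all the others, while shRela-2 overlapped shScr. The log2 fold change was -1.30 ± 0.042 with shRela-1 (edgeR adjusted p = 3.84e-08) and 0.07 ± 0.041 with shRela-2 (edgeR adjusted p = 0.234), a difference between hairpins of 1.37 ± 0.042. It was the largest change of the 36 genes in these comparisons. Sdf2l1, a soluble ER protein that works with the co-chaperone DNAJB11, had 11.1, 11.2 and 9.42 CPM with shRela-1, 22.1, 25.6 and 21.5 CPM with shRela-2, and 17.2, 16.5 and 16.2 CPM with shScr. It fell by 0.65 ± 0.088 on the log2 scale with shRela-1 and rose by 0.47 ± 0.087 with shRela-2. Canx, the membrane-bound lectin chaperone calnexin, had 632, 659 and 666 CPM with shRela-1, 865, 894 and 863 CPM with shRela-2, and 751, 808 and 792 CPM with shScr. The 3 groups did not overlap, and the fold changes were -0.26 ± 0.04 and 0.16 ± 0.04, the second of which missed the threshold without shRela-2 replicate 2 (edgeR adjusted p = 0.0536). Dnajb9, a J-domain co-chaperone that IRE1 signalling is known to induce, had 22.8, 24.8 and 24.5 CPM with shRela-1, 34.4, 34.9 and 34.4 CPM with shRela-2, and 27.7, 28.9 and 25.4 CPM with shScr. It fell by 0.18 ± 0.057 with shRela-1 (edgeR adjusted p = 0.0393) and rose by 0.34 ± 0.057 with shRela-2. The fall did not pass without shScr replicate 2 (edgeR adjusted p = 0.144), nor in 6 other leave-one-out fits. Pdia3 went the other way, with 1569, 1460 and 1517 CPM with shRela-1, 1129, 1071 and 1111 CPM with shRela-2, and 1344, 1306 and 1278 CPM with shScr. Its groups did not overlap, and it changed by 0.21 ± 0.041 and -0.25 ± 0.041.

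The remaining 5 folding genes are given by their means. Dnajb11, another J-domain co-chaperone, averaged 148 ± 3.14 CPM with shRela-1, 200 ± 8.62 CPM with shRela-2 and 151 ± 1.34 CPM with shScr (SD, n = 3 each) and rose with shRela-2 by 0.41 ± 0.04. Manf, an ER-resident protein that can be secreted as a neurotrophic factor, fell with shRela-1 by 0.37 ± 0.067, at 109 ± 9.85 CPM with shRela-1, 140 ± 1.4 CPM with shRela-2 and 140 ± 10.2 CPM with shScr. Creld2, an ER stress gene with a disulfide isomerase function, rose with shRela-1 by 0.30 ± 0.069 and had -0.13 ± 0.07 with shRela-2, which passed with the replicate block (edgeR adjusted p = 0.021). Calr had 0.15 ± 0.06 and 0.14 ± 0.06, and Pdia4, a disulfide isomerase, 0.12 ± 0.06 and 0.12 ± 0.06. Neither passed without the block, and both passed with it, with edgeR adjusted p = 4.33e-04 and 7.87e-04 for Calr and 0.00229 and 0.00171 for Pdia4. Exons of Hsp90b1, Pdia3, Pdia6, Dnajb9 and Manf overlap those of another annotated gene on the opposite strand (1810014B01Rik, Catsper2, Atp6v1c2, Mir5627 and 4930524O07Rik). Strand is not kept by the library kit, and reads of such pairs cannot be told apart. On the same strand, exons of Hsp90b1 overlap Gm15344 and Gm25745, those of Manf overlap Rbm15b, and those of Pdia4 overlap Mir704.

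**Figure D3:**
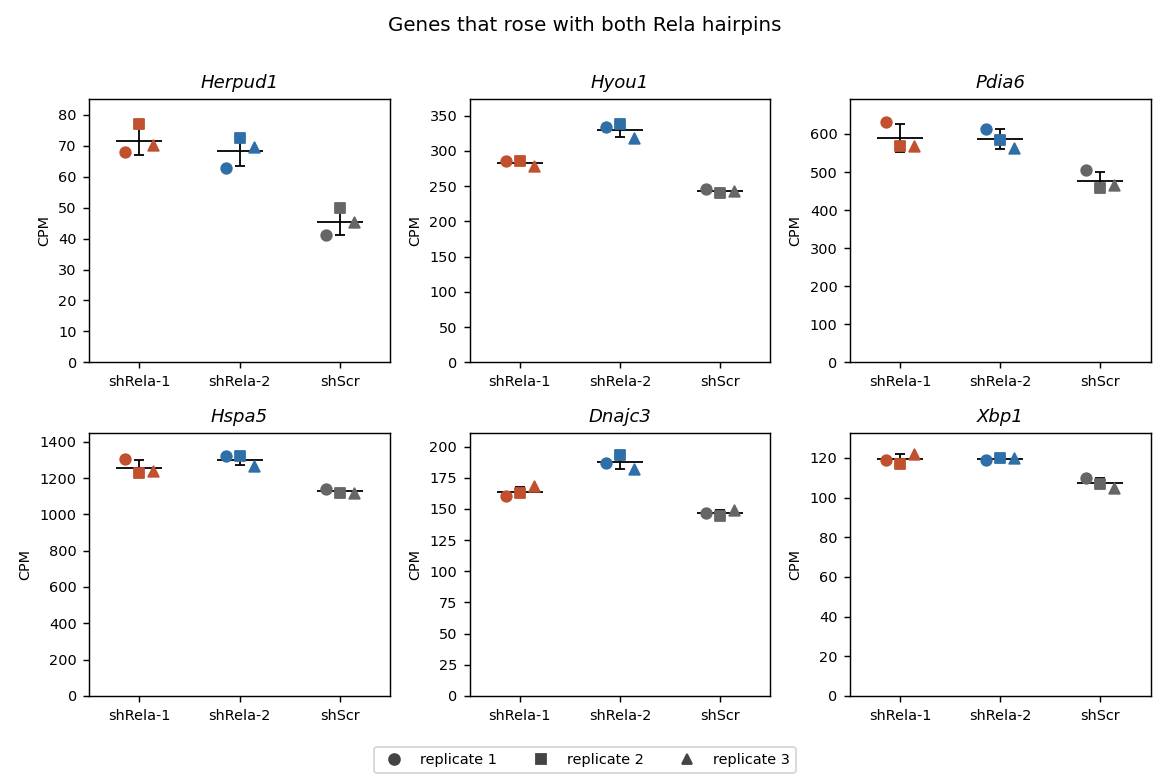
CPM of the 6 genes that rose with both hairpins, in the 3 samples of each group, with symbols for the replicate number, a horizontal bar for the mean and a vertical bar for the SD; each axis starts at 0. Every knockdown sample lies above every shScr sample in the 6 panels, and the shRela-2 points are above the shRela-1 points for Hyou1 and Dnajc3.

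Folding genes are known for a promoter element to which ATF6 binds together with NF-Y, the ER stress response element (ERSE), which reads CCAAT, any 9 bases, then CCACG. Promoter windows from RefSeq (GRCm38.p6, 250 bases before to 50 bases after the transcript start) were at hand for 32 of the 36 genes. On either strand, 9 of the 32 held an ERSE, or 28.1%, where 0.137% of the 27025 genes with a window did. Of the 11360 tested genes with a window, 0.185% held it. The shorter form ERSE-II, ATTGG, any 1 base, then CCACG, was in 2 of the 32 (6.25%). It was in 0.0444% of the genes with a window and 0.0704% of the tested ones. The letters TGACGTGG, an XBP1 and ATF6 element known as UPRE, were in 0 of the 32 windows. They were in 0.714% of the genes with a window and 1.12% of the tested ones. An NF-kB motif, GGG, any 2 bases, then TTTCC, was in 0 of the 32, against 1.89% and 2.02%. A match describes the letters and is no evidence of binding. The elements are printed here on the strand that reads CCAAT or ATTGG first, with both parts in capitals, because the genes that share them did not move together.
Hspa5, chr2:34772025-34772043: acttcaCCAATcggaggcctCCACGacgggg
Pdia6, chr12:17266491-17266509: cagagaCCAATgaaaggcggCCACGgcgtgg
Dnajc3, chr14:118937827-118937845: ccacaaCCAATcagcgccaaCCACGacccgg
Canx, chr11:50325800-50325818: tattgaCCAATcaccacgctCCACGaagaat
Creld2, chr15:88819520-88819538: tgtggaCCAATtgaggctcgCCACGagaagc
Calr, chr8:84847075-84847093: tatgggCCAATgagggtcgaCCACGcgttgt
Syvn1, chr19:6046532-6046550: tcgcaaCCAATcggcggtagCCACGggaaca
Derl3, chr10:75893242-75893260: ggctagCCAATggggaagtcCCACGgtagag
Dnajb11, ERSE-II, chr16:22857852-22857862: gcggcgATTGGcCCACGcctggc
The coordinates are those of the element, and the lower-case ends add 6 bases on each side.

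Hsp90b1, the gene that fell most with shRela-1, was the only one of the 32 with a pair of exact ERSE matches in its window, 1 on each strand. Elements with a mismatch were not searched for. Hsp90b1 shares the element with Hspa5, Pdia6 and Dnajc3, which rose with both hairpins. Its window is printed from chr10:86705395-86705694 on the minus strand, the strand of the gene, with the parts of the elements in capitals (the second element reads CGTGG and ATTGG on this strand).
Hsp90b1: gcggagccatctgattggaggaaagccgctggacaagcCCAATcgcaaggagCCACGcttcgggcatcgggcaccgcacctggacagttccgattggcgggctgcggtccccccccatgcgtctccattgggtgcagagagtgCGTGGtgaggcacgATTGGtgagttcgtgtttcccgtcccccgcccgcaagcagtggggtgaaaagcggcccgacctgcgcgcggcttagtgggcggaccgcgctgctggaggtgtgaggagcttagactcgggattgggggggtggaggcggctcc
Among all 29 tested genes with an ERSE or ERSE-II, 7 rose and 6 fell with shRela-1, and 9 rose and 0 fell with shRela-2 by edgeR's test (0 also at an unadjusted p under 0.05, by DESeq2 and by limma voom). Of these, the 11 members of the set had 6 rises and 2 falls with shRela-1 and 6 rises and 0 falls with shRela-2. The other 18 had 1 rise and 4 falls with shRela-1 and 3 rises and 0 falls with shRela-2. Over all genes tested, 12.3% rose and 12.4% fell with shRela-1, and 15.4% rose and 15.4% fell with shRela-2. With the block the 29 genes had 9 rises and 6 falls with shRela-1 (20.4% and 18.9% of all genes). With shRela-2 they had 10 rises and 1 fall with the block (22.2% and 22.2% of all genes).

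Of the 6 genes of ER-associated degradation, 4 rose with shRela-1, where 12.3% of all genes did (20.4% with the block). With shRela-2, 1 rose and 1 fell, where 15.4% and 15.4% of all genes did. With the block these were 2 and 1, where 22.2% and 22.2% of all genes did. Herpud1, which encodes a membrane protein that organises the HRD1 ubiquitin ligase complex, had 67.8, 76.9 and 70.1 CPM with shRela-1, 62.9, 72.5 and 69.5 CPM with shRela-2, and 41.1, 49.8 and 45.3 CPM with shScr. Every knockdown sample was above every control sample, and the hairpins overlapped. It rose by 0.66 ± 0.076 with shRela-1 (edgeR adjusted p = 1.50e-04) and by 0.59 ± 0.076 with shRela-2 (edgeR adjusted p = 2.59e-04), and the hairpins differed by -0.07 with a 95% interval of -0.24 to 0.10. Sel1l, the adaptor of the same ligase, had 233, 235 and 234 CPM with shRela-1, 180, 190 and 188 CPM with shRela-2, and 208, 215 and 218 CPM with shScr. The groups did not overlap, and it changed by 0.13 ± 0.036 and -0.20 ± 0.037. Syvn1, the ligase HRD1 itself, had 111, 100 and 102 CPM with shRela-1, 95.5, 89.2 and 95.8 CPM with shRela-2, and 97.9, 88.5 and 87.3 CPM with shScr. It rose with shRela-1 by 0.20 ± 0.056 and had 0.04 ± 0.057 with shRela-2, whose samples overlapped those of shScr. Exons of Syvn1 overlap the opposite-strand gene Mrpl49. Derl1, a channel subunit, rose with shRela-1 by 0.14 ± 0.035 and had 0.10 ± 0.035 with shRela-2 (edgeR adjusted p = 0.0524, and 0.00776 with the replicate block). Edem1, a lectin that hands over misfolded glycoproteins, had -0.03 with a 95% interval of -0.12 to 0.07 with shRela-1 and -0.05 with an interval of -0.14 to 0.04 with shRela-2. Derl3 had 0.531 ± 0.18 CPM with shRela-1, 0.311 ± 0.0098 CPM with shRela-2 and 0.354 ± 0.185 CPM with shScr, too little for a difference of this size to be detectable. The shRela-1 rise was weak in 3 of these genes. Sel1l missed the threshold when replicate 1 or 2 of shScr or replicate 2 or 3 of shRela-1 was left out, Syvn1 when replicate 2 or 3 of shScr or replicate 1 of shRela-1 was, and Derl1 when replicate 1 of shScr or replicate 2 of shRela-1 was (edgeR adjusted p between 0.0542 and 0.113).

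The promoter window of Herpud1 held both an ERSE-II (ATTGG, 1 base, CCACG) and a composite element for ATF4 and C/EBP factors, TGATG, any 1 base, then AA, which lies on the opposite strand. Window chr8:94386179-94386478, plus strand, with both elements in capitals, the composite as its reverse complement:
Herpud1: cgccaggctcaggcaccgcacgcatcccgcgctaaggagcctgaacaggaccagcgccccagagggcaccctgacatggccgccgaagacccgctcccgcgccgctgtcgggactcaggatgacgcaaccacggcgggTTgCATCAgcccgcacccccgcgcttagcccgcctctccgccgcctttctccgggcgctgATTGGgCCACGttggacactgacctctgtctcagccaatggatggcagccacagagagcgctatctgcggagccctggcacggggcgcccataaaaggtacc

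Of the 4 sensors and their direct factors, 3 rose and 1 fell with shRela-1, where 12.3% and 12.4% of all genes did. With shRela-2, 1 rose and 1 fell, where 15.4% and 15.4% of all genes did. With the block these were 1 and 2, where 22.2% and 22.2% of all genes did. Xbp1, the factor that IRE1 activates by splicing, had 119, 117 and 122 CPM with shRela-1, 119, 120 and 120 CPM with shRela-2, and 110, 107 and 105 CPM with shScr. All 6 knockdown samples were above the controls, and the rises were 0.15 ± 0.034 and 0.16 ± 0.034. Eif2ak3, the kinase PERK, had 50, 53.9 and 53.4 CPM with shRela-1, 33.6, 36.6 and 35.7 CPM with shRela-2, and 43.6, 43.4 and 46.8 CPM with shScr. The 3 groups were fully apart. It rose by 0.23 ± 0.048 with shRela-1 and fell by 0.34 ± 0.049 with shRela-2, and shRela-2 was lower than shRela-1 by a log2 difference of -0.57 ± 0.049. Atf6, the membrane-bound factor that is cut to become active, had 111, 114 and 120 CPM with shRela-1, 76.2, 78.6 and 84.7 CPM with shRela-2, and 84.0, 84.7 and 89.0 CPM with shScr. The shRela-1 samples stood above all the others, and the change was 0.42 ± 0.048 in shRela-1 and -0.10 ± 0.048 in shRela-2, which passed with the replicate block (edgeR adjusted p = 0.0114). Ern1, the kinase and nuclease IRE1, had 18.6, 17.9 and 18.1 CPM with shRela-1, 26.6, 27.5 and 26.7 CPM with shRela-2, and 24.8, 25.0 and 25.9 CPM with shScr. It fell by 0.47 ± 0.047 with shRela-1, while the change with shRela-2 was 0.10 ± 0.047 and did not pass. With shRela-1, then, Atf6 and Eif2ak3 rose and Ern1 fell. Exons of Eif2ak3 overlap the opposite-strand gene Gm43292.

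Of the 7 regulators of the ATF4 pathway, Atf4, Ddit3 and Trib3 were higher with shRela-1 but lower with shRela-2 than with shScr. In all, 4 rose and 0 fell with shRela-1, where 12.3% of all genes rose and 12.4% fell. With shRela-2, 0 rose and 4 fell, where 15.4% of all genes rose and 15.4% fell. For the hairpin mean against shScr edgeR called 0 in either direction (10.7% of all genes rose and 12.2% fell). Each of these counts of 0 was also 0 at an unadjusted p under 0.05, by DESeq2 and by limma voom. With the replicate block 3 were lower in the mean of both hairpins than in shScr (19.7% of all genes were). Atf4, the central factor of the integrated stress response, had 234, 249 and 255 CPM with shRela-1, 180, 192 and 193 CPM with shRela-2, and 216, 224 and 224 CPM with shScr. The groups did not overlap, and it rose by 0.15 ± 0.045 with shRela-1 (edgeR adjusted p = 0.029) and fell by 0.23 ± 0.045 with shRela-2 (edgeR adjusted p = 0.00282). Ddit3, which encodes the factor CHOP that can lead stressed cells into death, had 75.2, 81.0 and 77.2 CPM with shRela-1, 44.6, 51.1 and 50.3 CPM with shRela-2, and 59.6, 68.5 and 70.6 CPM with shScr. Here too the 3 groups were apart, with changes of 0.23 ± 0.068 and -0.44 ± 0.069. Trib3, a pseudokinase that CHOP and ATF4 induce, had 22.4, 28.1 and 29.0 CPM with shRela-1, 8.61, 12.5 and 12.8 CPM with shRela-2, and 16.1, 21.3 and 19.7 CPM with shScr. It rose by 0.47 ± 0.16 with shRela-1 (edgeR adjusted p = 0.0493) and fell by 0.75 ± 0.16 with shRela-2 (edgeR adjusted p = 0.00483). Between hairpins Trib3 was lower with shRela-2 by -1.23 ± 0.16, Ddit3 by -0.68 ± 0.069 and Atf4 by -0.38 ± 0.045. Atf5, a factor related to ATF4, had 160, 189 and 177 CPM with shRela-1, 118, 156 and 162 CPM with shRela-2, and 163, 196 and 194 CPM with shScr. The shRela-2 samples were all below those of shScr, and the fall was 0.34 ± 0.12 (edgeR adjusted p = 0.0483), against -0.07 ± 0.12 with shRela-1. That fall was lost without replicate 2 or 3 of shScr, replicate 3 of shRela-1 or replicate 1 or 2 of shRela-2 (edgeR adjusted p between 0.0577 and 0.146). Ppp1r15a, the phosphatase subunit that reverses eIF2 phosphorylation, rose with shRela-1 by 0.16 ± 0.045 and had 0.02 ± 0.045 with shRela-2.

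Chac1, an enzyme that breaks down glutathione, had 0.16 ± 0.22 in shRela-1 and -0.31 ± 0.23 in shRela-2, of which the second passed with the replicate block (edgeR adjusted p = 0.00232) and without the samples numbered 1 (edgeR adjusted p = 0.0456), a choice made after the data were seen. Atf3, a stress-induced factor, had 0.17 ± 0.095 and -0.01 ± 0.095 at 5.02 to 6.53 CPM, and did not pass in either fit. Rises with shRela-1 in this group were close to the threshold. Leaving out shScr replicate 1, shRela-1 replicate 2 or shRela-1 replicate 3 ended the calls of Atf4, Ddit3, Trib3 and Ppp1r15a, with edgeR adjusted p between 0.0562 and 0.153. The 6 genes that rose with shRela-1 but fell with shRela-2 became 2 without any of these 3 samples, 3 without shScr replicate 2, 4 without shScr replicate 3 and 2 without scaling factors. Atf4, Trib3 and Ppp1r15a also missed the threshold without shScr replicate 2 or 3 (edgeR adjusted p between 0.0507 and 0.107). So did Ppp1r15a without shRela-1 replicate 1, and Trib3 without shRela-2 replicate 2 or 3. Without scaling factors none of the 4 rises with shRela-1 passed (edgeR adjusted p between 0.0511 and 0.0693). Exons of Ddit3, Atf5 and Ppp1r15a overlap opposite-strand genes (Mars and Gm4189, Il4i1 and Nup62, and Tulp2).

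**Figure D4:**
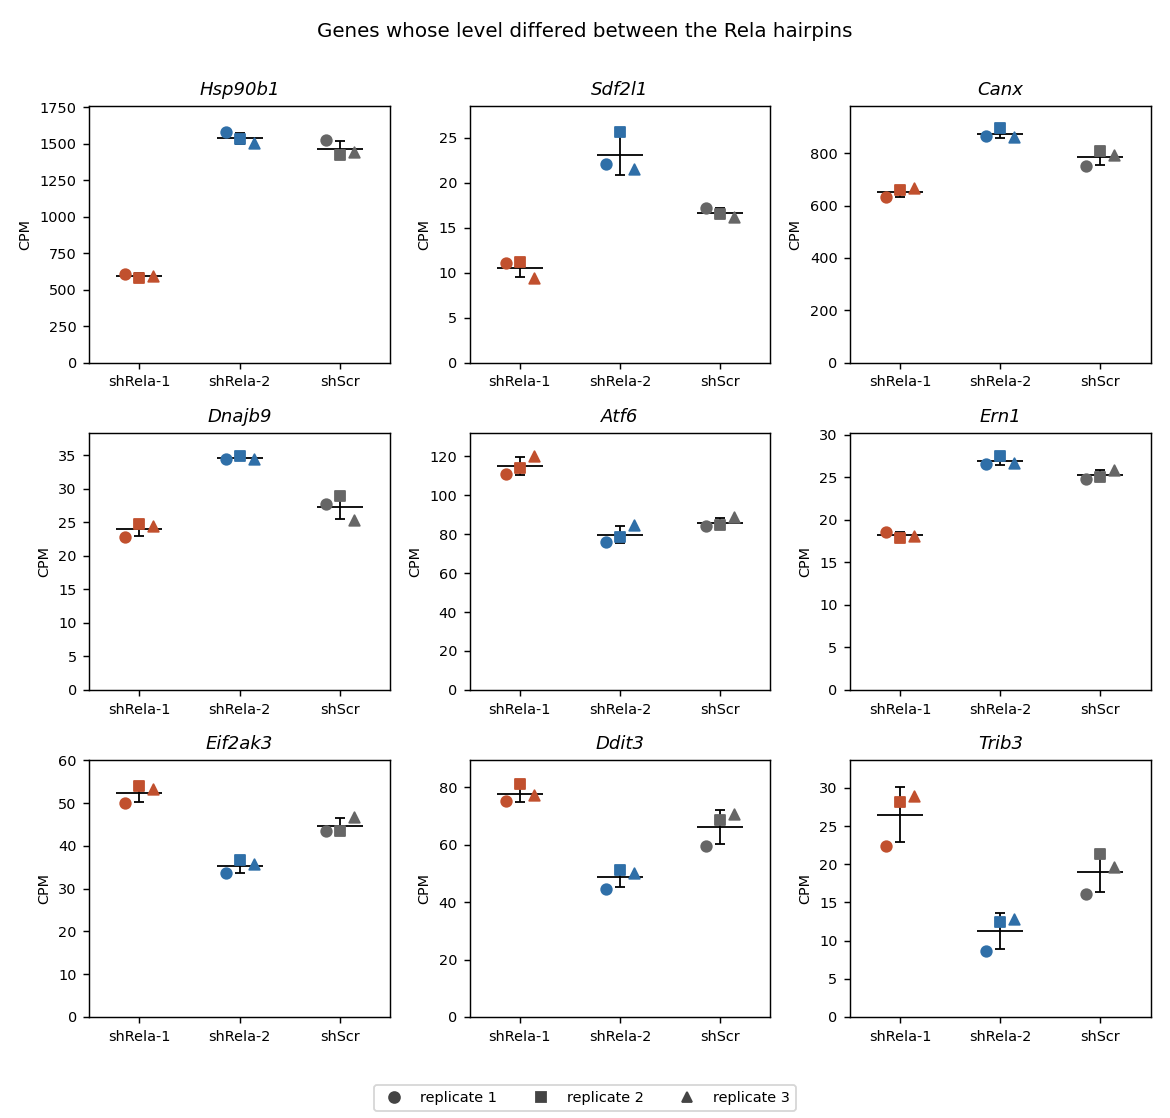
CPM of 9 genes whose level differed between the hairpins, drawn as in the plot of genes that rose with both, with axes from 0. Hsp90b1 and Ern1 are low with shRela-1 alone and Atf6 is high with shRela-1 alone, while Sdf2l1, Canx and Dnajb9 have shRela-2 highest and shRela-1 lowest, and Eif2ak3, Ddit3 and Trib3 have shRela-1 highest and shRela-2 lowest.

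Of the 32 windows, 5 (15.6%) held the ATF4 and C/EBP composite. It was in 4.51% of the 27025 genes with a window and in 2.92% of the 11360 tested ones. They are those of Herpud1, Trib3, Chac1, Asns and Atf3. Without the block, Herpud1 was called higher with each hairpin, and the calls of Trib3 had opposite signs. Chac1, Asns and Atf3 passed with neither hairpin. With the block, Chac1 and Asns were called lower with shRela-2 only, and Atf3 still did not pass. The elements other than that of Herpud1 are printed with the composite in capitals.
Trib3, chr2:152344039-152344046: cccggcTGATGtAAacctga
Chac1, chr2:119351049-119351056: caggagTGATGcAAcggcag
Asns, chr6:7693225-7693232: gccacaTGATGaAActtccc
Atf3, chr1:191183436-191183443: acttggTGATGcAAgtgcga

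The 5 enzymes make asparagine and serine and run the mitochondrial folate cycle. Without the block, 0 rose and 0 fell with shRela-1 by edgeR, DESeq2 or limma voom, and at an unadjusted p under 0.05 0 rose and 1 fell. With shRela-2, 1 fell. With the block, 1 rose and 1 fell with shRela-1, and all 5 fell with shRela-2. The 3 samples of each group were spread widely, and the samples numbered 1 were the lowest of their group for all 5 enzymes in all 3 groups. The same held for 5 of the 7 ATF4 regulators, 0 of the 14 folding genes and 13.1% of all genes tested. Of the 14 folding genes, 7 had their highest sample in number 1 in all 3 groups, where 13.6% of all genes did. The labels say nothing of what the numbers share.
Shmt2, the mitochondrial serine hydroxymethyltransferase, had 81.6, 89.4 and 89.1 CPM with shRela-1, 56.2, 69.6 and 74.1 CPM with shRela-2, and 75.7, 87.0 and 90.9 CPM with shScr. The shRela-2 samples were below all the others, and the fall with shRela-2 was 0.34 ± 0.096 (edgeR adjusted p = 0.0205, and 5.78e-07 with the block). It missed the threshold without shScr replicate 2 or 3 (edgeR adjusted p = 0.0575 and 0.0844). Exons of Shmt2 overlap the opposite-strand gene Ndufa4l2. Mthfd2, a mitochondrial folate dehydrogenase named after its values were seen, had 64.3, 79.9 and 82.5 CPM with shRela-1, 34.5, 49.4 and 53.2 CPM with shRela-2, and 48.3, 66.6 and 68.1 CPM with shScr. Groups overlapped, yet within each number the order was the same. Same-numbered samples gave log2 ratios of 0.41, 0.26 and 0.28 for shRela-1 over shScr and of -0.48, -0.43 and -0.36 for shRela-2 over shScr. Its fold changes were 0.31 ± 0.17 and -0.42 ± 0.17, with edgeR adjusted p = 0.222 and 0.0905 without the block and 3.25e-06 and 8.03e-08 with it. Phgdh, the first enzyme of serine synthesis, also named after its values were seen, had 84.7, 128 and 115 CPM with shRela-1, 94.7, 139 and 143 CPM with shRela-2, and 117, 162 and 161 CPM with shScr. Its same-numbered ratios came to -0.47, -0.34 and -0.48 for shRela-1 over shScr, and to -0.31, -0.22 and -0.17 for shRela-2 over shScr. Its fold changes of -0.43 ± 0.19 and -0.22 ± 0.19 had edgeR adjusted p = 0.129 and 0.415 without the block, and 5.29e-09 and 2.45e-05 with it. Asns, asparagine synthetase, had -0.01 ± 0.12 and -0.20 ± 0.12, and Psat1, an aminotransferase of serine synthesis, -0.06 ± 0.14 and -0.19 ± 0.15. For both genes the shRela-2 value passed with the block, at edgeR adjusted p = 1.03e-04 for Asns and 3.26e-05 for Psat1. Without the samples numbered 1, a choice made after the data were seen, 12 of the 36 genes rose and 13 fell with shRela-2 (13.1% and 13.6% of all genes).

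**Figure D5:**
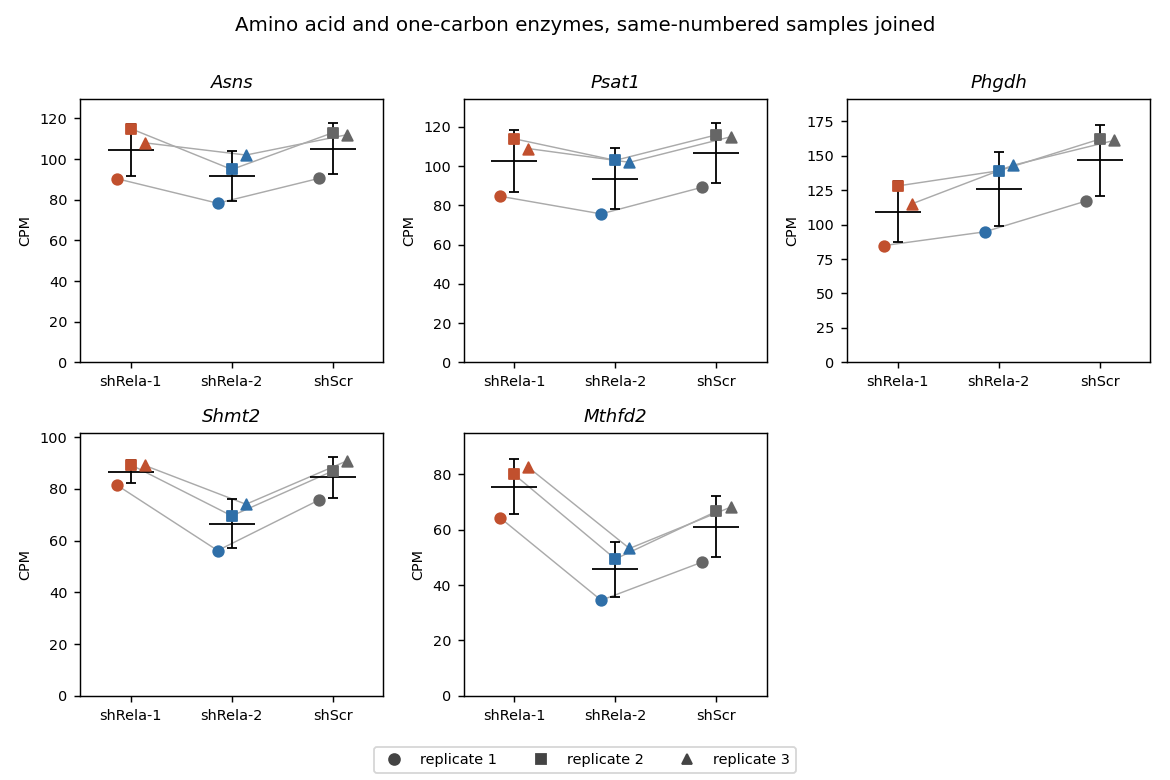
CPM of the 5 amino acid and folate enzymes, with symbols for the replicate number, grey lines joining samples of the same number, a horizontal bar for the mean and a vertical bar for the SD; axes start at 0. The circles, the samples numbered 1, are lowest in every group, and the lines dip at shRela-2 for Asns, Psat1, Shmt2 and Mthfd2 but not for Phgdh.

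Summed over its genes, each role group had its own balance. The 14 folding genes added to 7393 ± 261 CPM with shRela-1, 8336 ± 204 CPM with shRela-2 and 7731 ± 225 CPM with shScr, a sum in which Hsp90b1 weighs heavily. Hsp90b1 alone averaged 595, 1537 and 1463 CPM in the same order, and its drop with shRela-1 was larger than that of the sum. The median log2 fold change of the 14 genes was 0.13 with shRela-1 and 0.18 with shRela-2. The degradation genes added to 702 ± 3.79, 633 ± 7.17 and 630 ± 6.49 CPM, and the sensors to 305 ± 7.52, 262 ± 5.66 and 263 ± 3.71 CPM, in the same order of groups. For both of these the shRela-1 samples were above all the others, while the shRela-2 and shScr means were within their SDs. The ATF4 regulators added to 612 ± 34.3, 469 ± 41.7 and 568 ± 33.3 CPM, and all 3 shRela-2 samples were below the others. The 5 enzymes added to 406, 527 and 504 CPM with shRela-1, 339, 455 and 474 CPM with shRela-2, and 421, 544 and 547 CPM with shScr. The groups overlapped, and the shRela-2 sample was below the shScr sample in each of the 3 same-numbered pairs.

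Lists of other genes of the same pathways were set beside the 36. Of all genes tested, 12.3% rose and 12.4% fell with shRela-1 (20.4% and 18.9% with the block). With shRela-2, 15.4% rose and 15.4% fell (22.2% and 22.2% with the block). Of 24 other ER folding genes tested, 7 rose and 2 fell with shRela-1 and 15 rose and 1 fell with shRela-2, with a median log2 fold change of 0.04 and 0.20 (with the block, 8 and 6 with shRela-1, 17 and 1 with shRela-2). Fkbp10, a prolyl isomerase for collagen, had 0.04 ± 0.035 and 0.39 ± 0.035, and Hspa13, an ER-bound HSP70 protein, rose with both hairpins by 0.19 ± 0.05 and 0.43 ± 0.05. Of 24 other degradation genes, 5 rose and 6 fell with shRela-1 and 17 rose and 2 fell with shRela-2, with medians of 0.04 and 0.21 (with the block, 10 and 7 with shRela-1, 18 and 2 with shRela-2). Erlin2, which had the smallest p of this list for the hairpin mean, fell with both, at -1.74 ± 0.059 and -0.84 ± 0.057. Man1b1, a mannosidase that marks misfolded glycoproteins, rose with both by 0.35 ± 0.039 and 0.36 ± 0.039. Faf2, which recruits the ATPase VCP to the ER, fell by 0.65 ± 0.036 with shRela-1 and rose by 0.13 ± 0.035 with shRela-2. Of 26 genes of the translocon and of COPII vesicles, which carry cargo in and out of the ER, 5 rose and 4 fell with shRela-1 (8 and 7 with the block) and 15 rose and 6 fell with shRela-2 (16 and 6). Sec23a, with the smallest p of this list for the hairpin mean, rose with both by 0.31 ± 0.043 and 0.52 ± 0.043. Mcfd2, a cargo receptor subunit, fell by 0.87 ± 0.036 with shRela-1 and rose by 0.34 ± 0.035 with shRela-2. Among 17 other ER stress regulators, 3 rose and 6 fell with shRela-1 (3 and 7 with the block) and 4 rose and 4 fell with shRela-2 (7 and 5). Mbtps2 and Mbtps1, the proteases that cut ATF6, each fell with a different hairpin, Mbtps2 by 0.65 ± 0.062 with shRela-1 and Mbtps1 by 0.36 ± 0.036 with shRela-2.

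Other known targets of ATF4 and CHOP also differed between the hairpins. Of 32 other ATF4 and CHOP targets, 7 rose and 2 fell with shRela-1 and 3 rose and 12 fell with shRela-2, with medians of 0.07 and -0.28. With the block 11 rose and 5 fell with shRela-1, and 5 rose and 20 fell with shRela-2. Between the hairpins, 18 of these 32 were lower with shRela-2 and 0 were higher by edgeR's test, DESeq2, limma voom or an unadjusted p under 0.05 (1 higher with the block and 26 lower). Of all genes, 19.9% were lower and 20.0% higher by edgeR's test (26.1% and 25.8% with the block). Related lists did not lean as far. Of 20 cytosolic aminoacyl-tRNA synthetases, 7 were lower and 4 higher with shRela-2 (9 and 4 with the block). Their median log2 difference was -0.04, against -0.31 for the 32 targets. Of 16 genes for eIF2 kinases and eIF2 factors, 4 were lower and 5 higher with shRela-2 (8 and 6 with the block). Sesn2, a stress-induced inhibitor of mTORC1 signalling, rose with both by 0.54 ± 0.061 and 0.33 ± 0.061, and Tnfrsf10b, a death receptor that CHOP induces, by 0.28 ± 0.033 and 0.21 ± 0.033. Gpt2, a mitochondrial alanine aminotransferase, fell with both, by 0.33 ± 0.093 and 0.89 ± 0.095. Of 16 genes for eIF2 kinases and eIF2 factors, 0 rose and 2 fell with shRela-1 by edgeR's test (5 and 2 with the block, 1 risen by DESeq2, 0 by limma voom, and 3 risen at an unadjusted p under 0.05), and 3 rose and 4 fell with shRela-2 (4 and 5 with the block). Impact, an inhibitor of the eIF2 kinase GCN2, fell by 0.72 ± 0.043 with shRela-1 and rose by 0.30 ± 0.043 with shRela-2, and Eif2b5, the catalytic subunit of the eIF2 exchange factor, had -0.01 ± 0.039 with shRela-1 and fell by 0.55 ± 0.039 with shRela-2.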

How the data were processed

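The authors deposited raw read counts per gene symbol, 1 column per sample, unpooled. TopHat2 2.0.14, featureCounts 1.4.6, Bowtie2 2.2.6 and Subread, with the build mm10, are listed in the submitters' processing notes. Per the labels' protocols, column-purified total RNA went into TruSeq RNA v2 libraries. Of 24062 genes, 3924 had no count. The deposited counts hold the value 1 in 2764 cells and 2 in 7984, and no source used here says whether mates were counted separately. The precision stated covers the spread between samples only, and nothing says that replicates were separate cultures, so the spread may be technical. Counts of replicate pairs differed by more than sampling (11.3 to 106 chi-square units per degree of freedom). The shScr titles carry a dataset tag that the others lack, and a batch that goes with it cannot be told apart from the group.

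Samples were grouped by title. The test was that of edgeR 4.0.16 under R 4.3.3 (filterByExpr defaults, 15369 genes, TMM factors 0.975 to 1.02, 1 quasi-likelihood fit of all 9 samples, two-sided, Benjamini-Hochberg over all genes, threshold 0.05), checked on simulated data. CPM uses TMM-scaled totals, and errors on fold changes are standard errors of the fit. RPKM uses GENCODE vM21 exon lengths. Deviations from the group means correlated in all 9 same-numbered pairs (0.189 to 0.415, against -0.306 to 0.0459 otherwise), so the numbers, which come from the titles, pair the samples. The blocked fit is given where it changes a member's call or a count of a list. Alternatives were DESeq2 1.42.0 (test and size factors), limma 3.58.1 voom, no scaling, other filters, halved counts, narrower fits and leaving samples out. The members and lists were chosen with earlier results of these data known. Values in every sample are given for members called with both hairpins and for the 3 largest called changes per role group. Other genes named are among the up to 3 per list with the smallest p for the hairpin mean against shScr. Not all of these are named.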

Additional observations from a re-analysis of the deposited data

Results flagged for a closer look

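The fold changes against shScr differed between the hairpins, by edgeR's test of shRela-2 against shRela-1, for 21 of the 36 genes. By the same test 6134 of all 15369 genes differed, 20.0% being higher and 19.9% lower with shRela-2. Higher with shRela-2 were Hsp90b1 (log2 difference 1.37), Sdf2l1 (1.12), Ern1 (0.57), Dnajb9 (0.52), Dnajb11 (0.44), Canx (0.42), Manf (0.37), Hyou1 (0.22) and Dnajc3 (0.20). Lower with shRela-2 were Trib3 (-1.23), Mthfd2 (-0.72), Ddit3 (-0.68), Eif2ak3 (-0.57), Atf6 (-0.53), Pdia3 (-0.46), Creld2 (-0.43), Atf4 (-0.38), Shmt2 (-0.38), Sel1l (-0.33), Syvn1 (-0.16) and Ppp1r15a (-0.14). The calls of Syvn1 and Ppp1r15a did not hold without scaling factors, at edgeR adjusted p = 0.118 and 0.139. Rela was left at a like level with both hairpins, 13.6 ± 0.487 CPM with shRela-1 and 13.9 ± 0.768 CPM with shRela-2 (SD, n = 3 each), and the log2 difference was 0.03 with a 95% interval of -0.09 to 0.14.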

How the results depend on the processing

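No called fold change of the 36 genes turned its sign under the alternatives run. The fit with the replicate number as a block raised the count of changed genes with shRela-1 to 6034 (3799 without it) and in the mean of both hairpins against shScr to 5763 (3507), and the changed members with shRela-2 to 28 (18) and in the mean to 22 (12), and beyond the calls named in the report it added calls and took none away. Treating the knockdown samples as 1 group left 440 genes and 3 members against shScr, where the difference between hairpins counts as spread. Leaving out 1 sample gave 2745 to 3824 changed genes and 16 to 23 members with shRela-1, 3766 to 4757 and 16 to 20 with shRela-2, 2329 to 3335 and 10 to 13 in the mean, and 5280 to 6152 and 19 to 21 between hairpins. The lowest of the mean, 2329, came without shScr replicate 3. Without scaling factors 11 members rose and 6 fell with shRela-1 (9.93% and 14.4% of all genes), where 17 rose and 6 fell with them (12.3% and 12.4%). The number of members that rose with both hairpins was 6 or 7 in all fits without the block. Derl3 is limited by depth.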

Other observations

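Among chaperones outside the ER, genes were called in both directions with each hairpin, as among all genes tested. Of all genes, 12.3% rose and 12.4% fell with shRela-1 (20.4% and 18.9% with the replicate block). With shRela-2, 15.4% rose and 15.4% fell (22.2% and 22.2% with the block). Of 20 cytosolic heat shock genes, 4 rose and 3 fell with shRela-1 (5 and 5 with the replicate block) and 6 rose and 4 fell with shRela-2 (7 and 6), by edgeR's test. Hspa4, a nucleotide exchange factor of cytosolic HSP70, fell with both, by 0.13 ± 0.044 and 0.69 ± 0.044 on the log2 scale, and Hsp90aa1, a cytosolic HSP90, rose with both, by 0.14 ± 0.037 and 0.21 ± 0.037. Of 12 mitochondrial chaperones and proteases, 1 rose and 1 fell with shRela-1 (3 and 1 with the block), and 3 rose and 6 fell with shRela-2. Trap1, with the smallest p of this list for the hairpin mean, fell with both, at -0.14 ± 0.034 and -0.19 ± 0.034. Hspe1, the mitochondrial partner of the HSP60 chaperonin, had -0.01 ± 0.071 with shRela-1 and fell by 0.67 ± 0.072 with shRela-2. Of 20 cytosolic aminoacyl-tRNA synthetases, several of which ATF4 is known to induce, 0 rose and 1 fell with shRela-1 by edgeR's test (5 and 4 with the replicate block, 2 risen by DESeq2, 0 by limma voom, and 2 risen at an unadjusted p under 0.05), and 1 rose and 7 fell with shRela-2 (3 and 10 with the block).

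Words of 7 bases in annotated 3' UTRs were set beside the fold changes of the 13876 tested genes with a UTR, as a description without a test. Words held by at least 50 genes were ranked by the difference in mean fold change between genes with and without the word over its standard error, after a linear fit on the log length of the UTR was taken out. The word ranked first for lower values with shRela-1 was AGGTGTA, held by 1121 genes with a median log2 fold change of -0.161, against 0.012 in the others, and the next, GGTGTAA, was held by 848 genes with a median of -0.191, against 0.010. With shRela-2 it was GAAGCTA, held by 1235 genes with a median of -0.174, against 0.010. AGGTGTA was in 2 of the 36 genes, Sdf2l1 and Ern1, which fell with shRela-1, where 8.08% of the genes with a UTR held it. GAAGCTA was in 1, Sel1l, which fell with shRela-2, where 8.9% held it. The words were picked by these same fold changes, so such matches are description only. The UTR of Hsp90b1 held neither. The sequences of the hairpins were not used here, and the part of these words in the results was not tested.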
